A study of Mus musculus with 25 samples.

Results

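The 10 control libraries of a mouse white matter stroke study were described on their own: every library whose label gives the condition Control was taken, 10 of 25 in all. The study took oligodendrocyte precursor cells from mouse brain by laser capture microdissection, in which chosen areas are cut from a tissue section under the microscope, and sequenced their amplified cDNA. The remaining libraries came from Day 5 (8 libraries) and Day 15 (7 libraries) of white matter stroke, an ischemic injury of myelinated fibre tracts. The controls are those without stroke. Pdgfra and Cspg4, which define precursors, were below 1 RPKM in most of them and myelin genes were high, so they are called control libraries here, with no cell type name. Strain, sex, age, the way the areas were chosen, whether controls were sham operated and the animal behind each library are not stated in the sources used here. The unit, RPKM, divides reads by the length of the gene and by the size of the library, which puts levels of different genes in a library on a common scale. The gene lengths the authors divided by are not stated, so levels of different genes are compared only as deposited. RPKM of at least 1 is called detected throughout.

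Oligodendrocyte precursors are glial cells that divide in the adult brain and mature into the oligodendrocytes that wrap axons in myelin. They carry the growth factor receptor Pdgfra and the proteoglycan Cspg4, lose both as they mature, and then switch on myelin genes such as Mbp. Sox10 is a transcription factor of the whole lineage, and Gfap is the intermediate filament of astrocytes, the neighbouring glial type.

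The controls differed widely from each other as libraries. Between 1306 and 4320 genes were detected per control, with a median of 2330 of 23351 in the table. The RPKM sum without Rn45s, the ribosomal RNA precursor, ran from 7210 in replicate 3 to 33982 in replicate 5. Rn45s took 2.54% to 73.4% of the whole sum, and the 10 highest of the other genes took 8.71% to 50.9% of the rest. The number of reads behind the values is unknown, so no counting interval can be given. The spread between libraries may be technical.

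Few genes were detected in every control. The 137 genes detected in all 10 made up 0.587% of the table, a further 147 were detected in 9, and 1573 in at least 5. After scaling the libraries to equal sums without Rn45s or to equal upper quartiles, 300 and 306 genes were detected in all 10. In contrast, 14026 genes (60.1%) stayed below 1 RPKM in all 10 controls, and 1873 of these were listed at 0 in every control. The line between 10 and 9 libraries was thin. Just inside it, the lowest value of a gene was 1.01 RPKM, and just outside it genes fell below the line at up to 0.998 RPKM. Replicate 3, which had the fewest detected genes, was the missing library for 57 of the 147 genes detected in 9. Of the 137 steadily detected genes, 40 also had a median of at least 10 RPKM. In all, 37 of the 137 belonged to 1 or more of 23 gene lists of cell types and pathways, and 100 to none.

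The highest medians combined structural RNAs, myelin genes and cytoskeletal genes, and the 15 genes ranked highest were detected in all 10 controls. Rn45s led with a median of 1844 RPKM, from 270.0 in replicate 10 to 93896 in replicate 5. Replicate 5 stood alone, since the next highest library had 3156. Malat1, a nuclear long noncoding RNA, followed at a median of 185 RPKM and ran only from 61.8 to 505. Mbp, a main protein of compact myelin, was next with a median of 139 RPKM, from 27.6 in replicate 9 to 753 in replicate 6. By median, Mbp thus ranked above every other protein-coding gene. Leaving out Rn45s, it was the highest gene of the library in replicates 3, 6 and 8. Other genes led the remaining controls, such as Nbas at 10186 RPKM in replicate 4.

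Further high ranks held genes of lipid synthesis, transport and iron storage. Scd2, a fatty acid desaturase, had a median of 55.5 RPKM (6.08 to 427). Kif5a, a motor of axonal transport, had a median of 52.9 RPKM (4.38 to 170). Fth1, the heavy chain of ferritin, had a median of 38.0 RPKM (12.1 to 79.3). All 3 were lowest in replicate 3, while their highest values fell in replicates 9, 1 and 8. Lars2, a mitochondrial leucyl-tRNA synthetase, had a median of 29.2 RPKM, but 1112 in replicate 4. Qk, an RNA-binding protein needed for myelination, had a median of 28.5 RPKM (14.1 to 313). Mtap4 (27.8 RPKM), Ctsb (27.8), Slc1a2 (27.6), Tubb4a (25.8), Apod (25.4) and Wnk1 (21.6) were also among the first 15 by median. They are a microtubule-binding protein, the lysosomal protease cathepsin B, the glutamate transporter of astrocytes, a tubulin of oligodendrocytes, an apolipoprotein of oligodendrocytes and a kinase of ion transport.

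Genes of mature, myelin-forming oligodendrocytes were the most steadily detected of all lists. Of 38 listed genes in the table, 16 were detected in all 10 controls and 31 in at least 5, against 0.587% and 6.74% of all genes. Per library, 63.2% to 84.2% of the list was detected, with a median of 75%. Besides Mbp, the steady members included Apod, Mobp (median 20.8 RPKM, 1.17 to 752), Trf (18.4, 4.33 to 101), Cnp (17.7, 3.35 to 282), Enpp2 (14.6, 1.68 to 59.1), Car2 (12.0, 1.26 to 674) and Tmem88b (11.4, 1.71 to 33.0). Mobp is a basic protein associated with myelin, Trf is the iron carrier transferrin, Cnp is a myelin-associated phosphodiesterase, Enpp2 is the enzyme autotaxin and Car2 is a carbonic anhydrase. Not every myelin gene was found: Ppp1r14a and Gamt, among others, stayed below 1 RPKM in all 10 controls, at highest values of 0.381 and 0.543. Mag, an adhesion protein of myelin, was detected in 8 controls (median 3.95 RPKM) and Mog, a surface protein of myelin, in 7 (3.56 RPKM).

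The sequences upstream of 3 of these steady myelin genes are shown because SOX factors such as Sox10 bind a short core motif, ACAAAG, read as CTTTGT on the other strand. They are the 3 of highest median among the list's steady genes with a single listed start, from RefSeq on build GRCm38.p6, the 250 bases before the start. Capitals mark each match to the motif on either strand. The positions are chr16:31314809-31315058 on the minus strand for Apod, chr9:120149492-120149741 on the plus strand for Mobp and chr11:100574689-100574938 on the plus strand for Cnp.
Apod: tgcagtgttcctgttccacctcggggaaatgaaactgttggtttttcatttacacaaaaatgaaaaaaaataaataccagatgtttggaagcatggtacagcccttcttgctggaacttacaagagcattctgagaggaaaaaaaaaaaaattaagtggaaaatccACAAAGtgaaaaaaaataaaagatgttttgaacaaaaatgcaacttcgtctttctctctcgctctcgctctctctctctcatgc
Mobp: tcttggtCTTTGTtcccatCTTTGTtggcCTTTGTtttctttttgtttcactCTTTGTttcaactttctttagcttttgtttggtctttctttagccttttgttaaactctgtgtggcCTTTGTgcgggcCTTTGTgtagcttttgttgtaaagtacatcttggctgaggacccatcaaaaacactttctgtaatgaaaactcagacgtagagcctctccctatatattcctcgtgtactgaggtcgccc
Cnp: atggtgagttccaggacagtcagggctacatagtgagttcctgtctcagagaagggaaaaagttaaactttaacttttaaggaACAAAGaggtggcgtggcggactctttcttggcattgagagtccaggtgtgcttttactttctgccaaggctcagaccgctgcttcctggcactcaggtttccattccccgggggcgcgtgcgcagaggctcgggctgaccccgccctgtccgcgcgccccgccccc
Apod and Cnp hold 1 match each and Mobp holds 6, the highest number in any of the 27025 listed promoters of this length. At least 1 match was present in 7 of the 26 myelin-list genes with a listed promoter (26.9%) and in 16.5% of all promoters. A match is a run of letters and not a measured binding site.

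By median, the 4 lineage markers stood in the order Mbp, Gfap, Sox10, Pdgfra, and 6 of the 10 controls had all 4 in this order (all but replicates 2, 4, 5 and 7). Mbp and Gfap were detected in all 10 controls, Sox10 in 7 and Pdgfra in 3. Gfap had a median of 7.13 RPKM, from 2.95 in replicate 3 to 335 in replicate 5. Sox10 had a median of 2.01 RPKM, from 0.289 in replicate 10 to 94.7 in replicate 2, where it passed Mbp (73.3 RPKM). Pdgfra had a median of 0.607 RPKM, from 0.0799 in replicate 10 to 3.59 in replicate 5. Replicates 5, 7 and 8 were the only controls with Pdgfra above 1 RPKM.

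**Figure D1:**
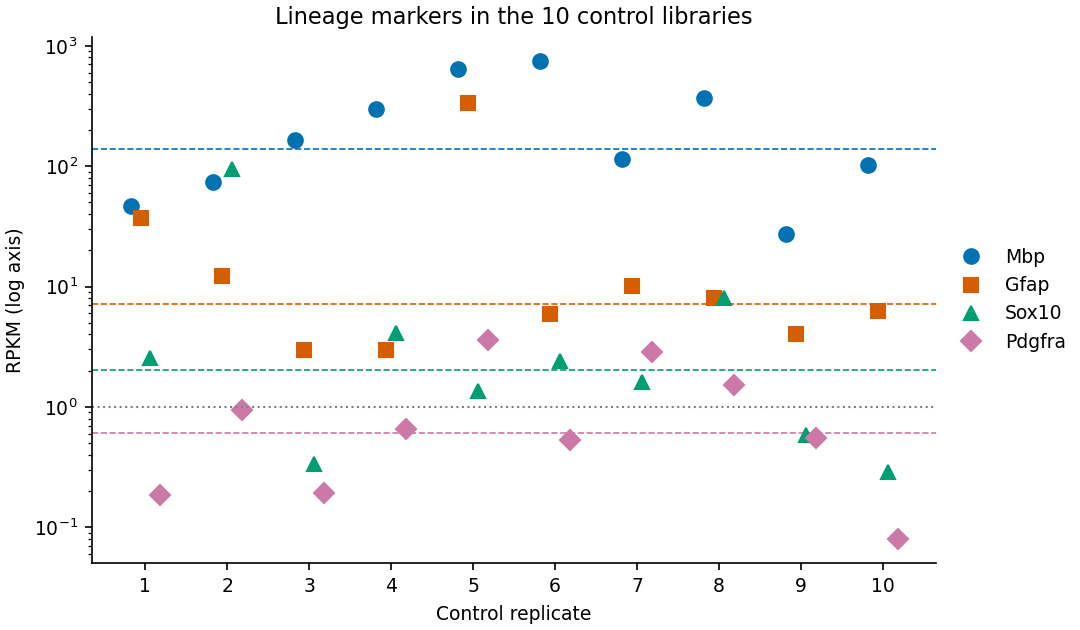
RPKM on a log axis of Mbp, Gfap, Sox10 and Pdgfra in each of the 10 control libraries, with points set apart sideways for legibility, a dashed line at each gene's median and a dotted line at 1 RPKM. Mbp is the highest of the 4 in every control but replicate 2, where Sox10 is at 94.7, and Pdgfra lies above the dotted line in 3 controls.

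Within a library, the differences between marker levels on the log2(RPKM + 1) scale were tested with an exact two-sided sign-flip permutation test, adjusted by Benjamini-Hochberg over 6 gene pairs. This scale understates differences of low genes, and the tests take the deposited values as they are. Of the 31-base words of the Mbp transcript, 1.05% also occur in the transcript of another gene, and the share is 0.909% for Sox10, 0.295% for Pdgfra and 0 for Gfap. Mbp exceeded Pdgfra by 6.42 ± 1.45 (SD, n = 10) in 10 of 10 libraries (exact adjusted p = 0.00391), Gfap by 3.72 ± 2.20 in 10 of 10 (exact adjusted p = 0.00391) and Sox10 by 5.34 ± 2.45 in 9 of 10 (exact adjusted p = 0.00586). Gfap exceeded Pdgfra by 2.70 ± 1.63 in 10 of 10 libraries (exact adjusted p = 0.00391). Before adjustment, the smallest p that 10 libraries allow is 0.00195. The neighbours at the low end of the order did not differ beyond their spread. Sox10 minus Pdgfra was 1.07 ± 1.86, higher in 8 of 10 libraries (exact adjusted p = 0.0723), and Gfap minus Sox10 was 1.62 ± 2.62, higher in 8 of 10 (exact adjusted p = 0.0723). Both passed the threshold of 0.05 with a pseudocount of 0.1 (1.61 and 2.16) and after scaling to equal sums without Rn45s (1.20 and 1.88). Sox10 minus Pdgfra also passed without replicate 5 or 7 (1.30 and 1.26) and was 0.57 without replicate 2, and Gfap minus Sox10 passed without replicate 2 (2.12) and was 1.01 without replicate 5. Within replicates 1 to 6 and 7 to 10, all 6 mean differences kept their sign.

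The markers did not vary together detectably. Over the 10 controls, Pearson's r between log2(RPKM + 1) of 2 markers ran from -0.0195 (Mbp and Sox10) to 0.581 (Gfap and Pdgfra), and no permutation test passed after adjustment over the 6 pairs. For Gfap and Pdgfra, Spearman's rho was 0.406 (permutation p = 0.248, adjusted p = 0.583) and the permutation p for r was 0.0659 (adjusted p = 0.395). Without the 2 libraries farthest from the median of Gfap, r was 0.609 (and 0.618 for Gfap and Sox10, beside 0.0418 over all 10), but for Gfap and Pdgfra it was 0.0804 without replicate 5 alone and 0.751 without replicate 1, where it passed (permutation test, adjusted p = 0.0312). Within replicates 1 to 6 it was 0.767, and replicates 7 to 10 are too few for a value.

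Precursor markers were detected more often than genes at large, but their defining members were low or missing in most controls. Of 18 precursor markers in the table, 2 were detected in all 10 controls (11.1%) and 6 in at least 5 (33.3%), against 0.587% and 6.74% of all genes. Their transcripts are long, at a median of 6757 bases against 2800 for all genes, and the part of length was not tested. Both steady members are matrix or surface proteoglycans that other brain cells also make: Ncan had a median of 7.96 RPKM (2.85 to 32.4) and Ptprz1 a median of 3.38 RPKM (1.67 to 71.0). Vcan, a matrix proteoglycan, was detected in 8 controls (median 3.20 RPKM), Sox6, a transcription factor, in 7 (1.35 RPKM), and Pcdh15, an adhesion protein, in 5 (1.08 RPKM). Cspg4 was detected in 1 control, at 9.78 RPKM, and was listed at 0 in 3, with a median of 0.00536 RPKM. Gpr17, a receptor of committed precursors, was detected in 3 controls (median 0.326 RPKM). The list's summed RPKM ran from 14.8 to 99.6 over the controls, with a median of 32.3, beside 266 to 1662 and a median of 1057 for the myelin list. Captured areas can hold several cells and cell types, and fewer cells of a type and less RNA per cell cannot be told apart in these values.

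Lineage transcription factors were spread between steady and scarce. The list had 8.33% detected in all 10 controls and 41.7% in at least 5, against 0.587% and 6.74% of all genes. Of 24 in the table, 2 were detected in all 10 controls: Zeb2 (median 9.89 RPKM, 3.37 to 28.0) and Tcf4 (7.46 RPKM, 1.47 to 65.0), both also active in other brain cells. Myrf, the factor that drives myelin genes, is listed under its older symbol Gm98 and was detected in 9 controls (median 5.00 RPKM, 0.901 to 17.3). Sox8, a relative of Sox10, was detected in 8 (1.92 RPKM), Olig1 in 7 (1.28 RPKM) and Olig2 in 4 (0.631 RPKM), the last 2 being factors that specify the lineage. Nkx2-2, a factor of early differentiation, stayed below 1 RPKM in all 10, at a highest value of 0.537. Hes5, a target of Notch signalling, did so too, at 0 in 8 controls.

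Among 15 genes of newly formed oligodendrocytes, 1 was steady (6.67%) and 6 were detected in at least 5 controls (40%). The shares of all genes were 0.587% and 6.74%. The steady gene was Bcas1, at a median of 14.7 RPKM (2.09 to 45.8). Nfasc, which organises the node of Ranvier (10.7 RPKM), Tns3, an adhesion adaptor (5.70 RPKM), and the deacetylase Sirt2 (3.81 RPKM) were each detected in 9 controls. Bmp4, a growth factor, and Casr, a calcium receptor, reached at most 0.120 and 0.0323 RPKM. Of 23 receptors and channels that precursors use, Kcnj10 alone was detected in all 10 (4.35%), and 7 in at least 5 (30.4%). Kcnj10, a potassium channel shared with astrocytes, had a median of 8.24 RPKM and a value of 242 in replicate 1. The lysophosphatidic acid receptor Lpar1 was detected in 8 controls (median 2.63 RPKM), Fgfr2 and Notch1 in 7 each (3.55 and 2.25 RPKM), and the Nogo receptor Rtn4r in none, at 0 in 8.

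Astrocyte genes were the next most detected cell type. The list had 21.7% detected in all 10 controls and 47.8% in at least 5, against 0.587% and 6.74% of all genes. Of 23 in the table, 5 were detected in all 10 controls: Slc1a2 (median 27.6 RPKM), Glul (10.1), Gfap (7.13), Atp1b2 (6.06) and Slc1a3 (3.03). They are the glutamate transporters Slc1a2 and Slc1a3, the glutamine synthetase Glul, the filament Gfap and a sodium pump subunit. Slc1a2 was low in replicate 3 at 2.21 RPKM and high in replicate 4 at 67.0. Aqp4, the water channel of astrocyte endfeet, was detected in 9 controls (1.93 RPKM, 0.885 to 7.72). Aldh1l1, an astrocyte enzyme, was detected in 3 (0.776 RPKM), and the connexin Gjb6 in none. The list's summed RPKM ran from 24.2 to 393, with a median of 94.7.

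Microglial genes were seldom steady but often detected, and macrophage and leukocyte genes were scarcer. Of the microglial list, 1 gene was detected in all 10 controls (4.17%) and 11 in at least 5 (45.8%). The shares of all genes were 0.587% and 6.74%, and 47.8% of the astrocyte list was detected in at least 5. Per library, a median of 43.8% of the microglial list was detected. Of 24 microglial markers, Ctss, a lysosomal protease, was detected in all 10 controls (median 4.67 RPKM, 1.96 to 36.7), Csf1r, the receptor for colony stimulating factor, in 9 (3.06 RPKM), and the complement gene C1qc in 8 (2.23 RPKM). Siglech and Gpr34 stayed below 1 RPKM in all 10. Detected members ran from 16.7% of the list in the lowest control to 83.3% in the highest. Of 18 macrophage and leukocyte markers, 2 were detected in at least 5 controls (11.1%, beside 6.74% of all genes). They were Lyz2, the macrophage lysozyme (4.56 RPKM), and Cd68, a lysosomal glycoprotein (2.41 RPKM). The list's summed RPKM had a median of 27.0 in replicates 1 to 6 and 2.74 in replicates 7 to 10. S100a8 and S100a9, made by neutrophils, were at 0 in 8 and 9 controls.

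No marker on the vessel, neuron or ependymal lists was detected in all 10 controls. Kif5a, the motor of axonal transport, is on none of these lists and was detected in all 10 (median 52.9 RPKM). The share detected in at least 5 was 14.3% of endothelial and 14.8% of neuron markers, above the 6.74% of all genes, and 0 of the mural and ependymal lists. Of 21 endothelial markers, 3 were detected in at least 5: Bsg in 9 (median 2.58 RPKM), Slc2a1 in 6 (1.16 RPKM) and Ly6a in 5 (1.28 RPKM). Cldn5, the tight junction claudin of brain endothelium, was at 0 in 5 controls and reached at most 0.115 RPKM. No mural or fibroblast marker of 17 reached 5 controls. Of 27 neuron markers, Snap25, a protein of synaptic vesicle release, and Mtap2, of dendrites, were each detected in 8 controls (3.40 and 1.51 RPKM), and Celf4 and Syt1 in 5 each. Rbfox3, the nuclear marker of neurons, stayed at or below 0.330 RPKM, and Nefl, Nefh, Gad1 and Stmn2 below 1 RPKM. No ependymal marker of 11 and no red blood cell gene of 6 was detected in as many as 5 controls. Among 22 cell cycle genes, 3 were detected in at least 5 controls (13.6%, beside 6.74% of all genes). Ccnd1 and Ccnd2, cyclins of early cycle, were detected in 8 and 7 (3.58 and 3.05 RPKM). Mki67, a marker of cycling cells, was detected in 5 (1.06 RPKM). The part of other cell types in the values of shared genes was not tested.

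**Figure D2:**
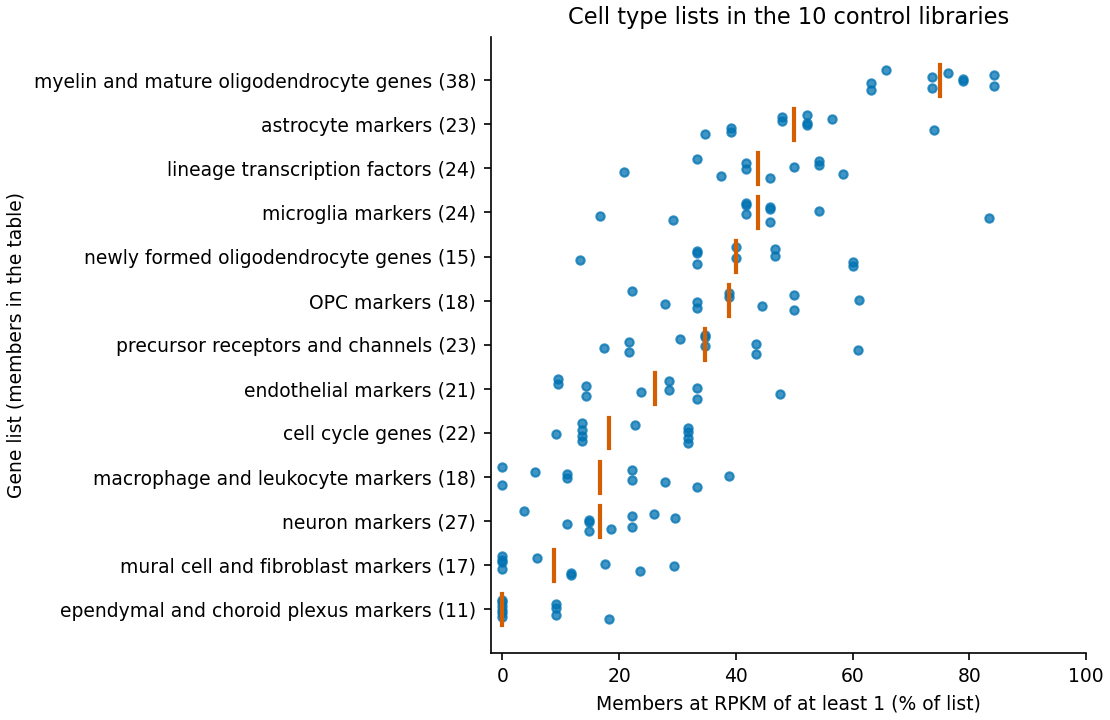
Share of each cell type, lineage and cell cycle list at RPKM of at least 1. A point stands for each of the 10 control libraries and a bar for the median, by which the lists are ordered. The number of members in the table is in brackets. Myelin genes lie highest, at 63.2% to 84.2%, followed by astrocyte markers at a median of 50%, while ependymal markers have a median of 0. The 9 long noncoding and structural RNA genes, at a median of 55.6%, are not drawn.

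Genes that nearly every cell uses were detected unevenly. The housekeeping list had 30% detected in all 10 controls and 40% in at least 5, against 0.587% and 6.74% of all genes. Of 20 housekeeping genes, 6 were detected in all 10 controls, among them Eef1a1, a translation factor (median 16.4 RPKM), Ywhaz, an adaptor protein (14.5), B2m, of the class I complex (13.1), and Actb, of the cytoskeleton (10.5). Gapdh, the glycolytic enzyme, reached at most 0.0698 RPKM in the controls and 0.269 RPKM in any of the 25 libraries. Of 80 cytosolic ribosomal protein genes, none was detected in all 10 controls and 7 in at least 5 (8.75%, beside 6.74% of all genes). Their median level was 0.0971 RPKM, and Rpl4 and Rps3 were among the highest, at medians of 4.65 and 2.50 RPKM. Of 80 nuclear genes of oxidative phosphorylation, 5 were detected in at least 5 controls (6.25%) and 1 was steady: Atp5b, a subunit of ATP synthase, at a median of 7.39 RPKM (2.51 to 36.4). Of 19 cholesterol synthesis genes, on which myelin formation draws, none was steady and 2 were detected in at least 5 controls (10.5%). Sqle, the squalene epoxidase, was detected in 6 controls, with a median of 1.30 RPKM and a highest value of 19.8. No immediate early or heat shock gene of 18 and no sex-linked gene of 5 was detected in as many as 5 controls. Of 9 long noncoding and structural RNA genes, Rn45s and Malat1 were steady. None of 612 microRNA genes and none of 105 small nucleolar RNA genes reached 5 controls. Their median transcript lengths are 83 and 93 bases.

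Transcript length differed between genes of different detection. It was taken as the longest transcript of the gene in GENCODE M21 (98.0% of genes matched). Its median was 4754 bases for the 137 steady genes, 5529 for genes detected in 7 to 9 controls, 4657 in 4 to 6 and 3485 in 1 to 3. It was 2366 for genes above 0 but never detected and 917 for genes at 0 in all controls, against 2800 for all genes. At like level the order varied. Among genes with a median of 2 to 5 RPKM, it was 6444 for steady genes and 5379 for genes detected in 5 to 9 controls. From 5 to 10 RPKM it was 4413 and 5643. At 10 RPKM or more it was 3979 and 5503, the latter over 6 genes. Ribosomal protein genes had a median of 1077 bases, oxidative phosphorylation genes 1003 and precursor markers 6757. Shared sequence was counted as the share of 31-base words of that transcript that occur in the longest transcript of another gene. Its median was 0.0910% over all genes and 35.5% for ribosomal protein genes, beside 0.940% for oxidative phosphorylation genes. Gapdh shared 30.7% of its words, Pgk1 68.3% and Eef1a1, a steady gene, 72.3%. At least 50% was shared by 2.21% of the steady genes, 1.18% of genes detected in 7 to 9 controls, 1.52% in 4 to 6 and 2.65% in 1 to 3. It was shared by 6.33% of genes above 0 but never detected and by 29.0% of genes listed at 0 in all controls, against 6.49% of all genes. The genes listed at 0 thus stood apart, while the tiers of detected genes did not follow an order. How the authors treated reads that fit several genes is not stated in the sources used here, so the levels of genes with near-identical copies, Rn45s, tubulins and ribosomal protein genes among them, are uncertain. The part of length and shared sequence in the detection of a gene was not tested.

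**Figure D3:**
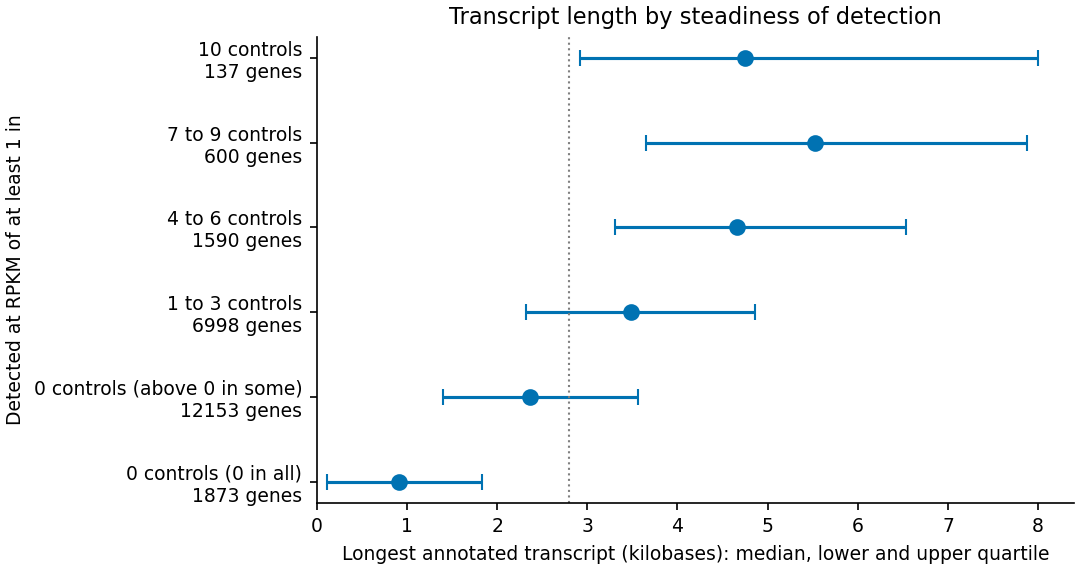
Length of the longest annotated transcript in kilobases, as a median (point) with lower and upper quartile (bar), for genes grouped by the number of control libraries in which they reached 1 RPKM, and a dotted line at the median of all genes. The median is 4754 bases for genes detected in all 10 controls and 917 bases for genes at 0 in all controls.

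Some genes of high level varied less than others from control to control. Among the 40 steady genes with a median of at least 10 RPKM, the SD of log2(RPKM + 1) over the 10 controls was lowest for Fth1 (0.76), followed by Dst (0.87), Malat1 (0.89), Apc (1.05), Spnb2 (1.07), Wnk1 (1.12), Bcas1 (1.17), Glul (1.20), Erbb2ip (1.24) and Ctsd (1.27). Fth1 and Malat1 belong to the 7 highest genes by median. Dst and Spnb2 link the cytoskeleton, Apc is a regulator of Wnt signalling and Ctsd is the lysosomal protease cathepsin D. The running median of SD at the mean of Fth1 was 1.53. Mbp, at an SD of 1.58, lay close to its running median. For genes as high as these, the running median rests mostly on genes of lower mean.

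The genes that varied most between controls had values far above the rest in 1 or a few libraries. Nbas, a protein of vesicle traffic, had a median of 1.18 RPKM and reached 10186 RPKM in replicate 4, where the second highest control had 4.45. Usp9x, a deubiquitinase, had a median of 3.00 RPKM and reached 2525 in the same replicate 4. The other genes of largest spread above the running median were Ifitm3, Itgav, Ankib1, Glg1, Mast3, Sorbs3, Srgap2, Kcna6, Nav2, Mapre2, Tuba1a, Ly6e and Sh3kbp1. Ifitm3, an antiviral membrane protein, was high in more than a single control: 152 RPKM in replicate 5, with 144 in the next, around a median of 6.57. Tuba1a, a tubulin, reached 865 RPKM in replicate 5 around a median of 10.8. Kcna6, a potassium channel, reached 295 in replicate 1 around a median of 1.54.

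**Figure D4:**
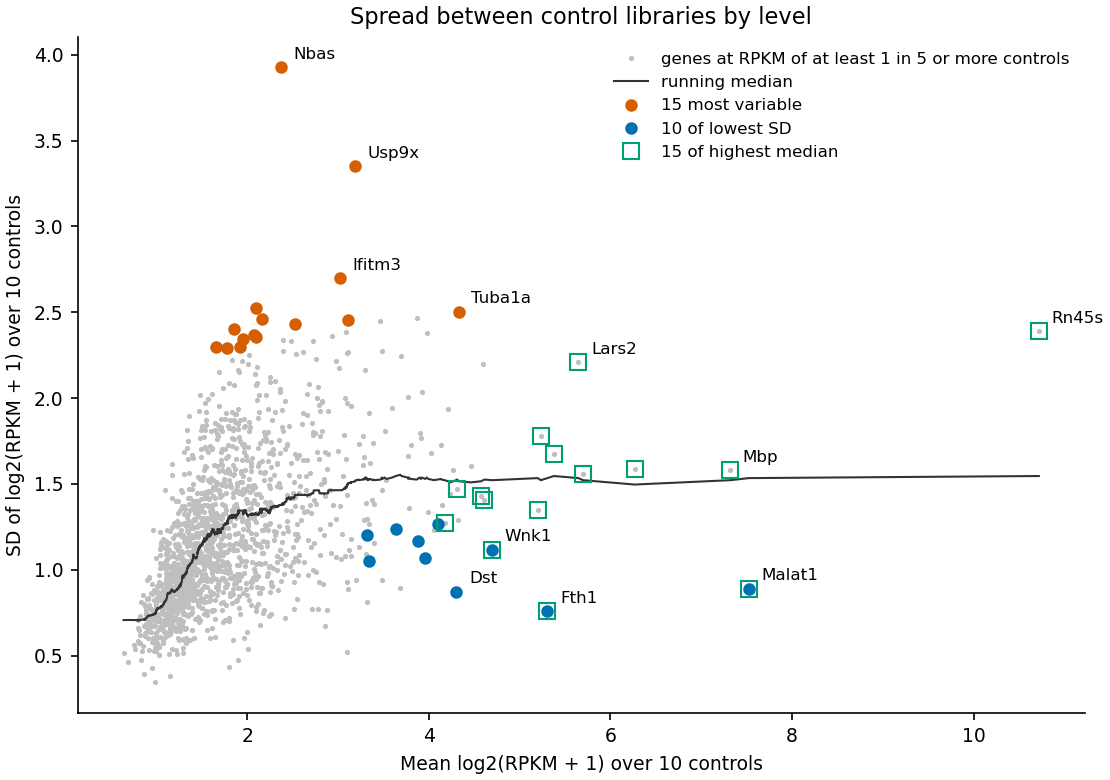
SD of log2(RPKM + 1) over the 10 controls against the mean of log2(RPKM + 1), for the 1573 genes detected in at least 5 controls, with a line at the running median over genes of similar mean. Nbas and Usp9x lie above all other genes, and Fth1 and Malat1 lie below the line among the highest genes.

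Isolated high values were common. Of 374 genes that reached 50 RPKM in a control, 204 (54.5%) did so at 10 times or more their second highest control. The myelin genes Mobp (752 RPKM in replicate 7, next 59.4) and Car2 (674 RPKM in replicate 2, next 63.9) were among the 5 largest of these. The 204 genes fell unevenly, with 61 in replicate 5, 44 in replicate 2, 26 in replicate 4 and 3 in replicate 9. They made up 50.5% of the RPKM sum without Rn45s in replicate 4 and 2.18% in replicate 9. Below 1 RPKM in all other controls were 33 of them, and 34 also reached 50 RPKM in a stroke library.

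The likeness of the controls in the order of their genes depended on the genes taken. Over the 1573 genes detected in at least 5 controls, Spearman's rho across genes between 2 libraries had a median of 0.176 over 45 pairs, from 0.0582 to 0.335. Over all genes above 0 in at least 1 control, the median was 0.544, from 0.460 to 0.633. Genes are not independent replicates, and this gives a description only. Over the 1573 genes, the 6 pairs within replicates 7 to 10 had rho from 0.281 to 0.335. The 15 pairs within replicates 1 to 6 ran from 0.125 to 0.257 and the 24 pairs between the ranges from 0.0582 to 0.242, so replicates 7 to 10 were the most alike on these genes. This did not hold over all genes above 0, where pairs within 7 to 10 ran from 0.536 to 0.617, within 1 to 6 from 0.487 to 0.633 and between the ranges from 0.460 to 0.624. Genes above 0 numbered 9588 to 14142 in replicates 1 to 6 and 16013 to 17407 in replicates 7 to 10. The labels name no batch.

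**Figure D5:**
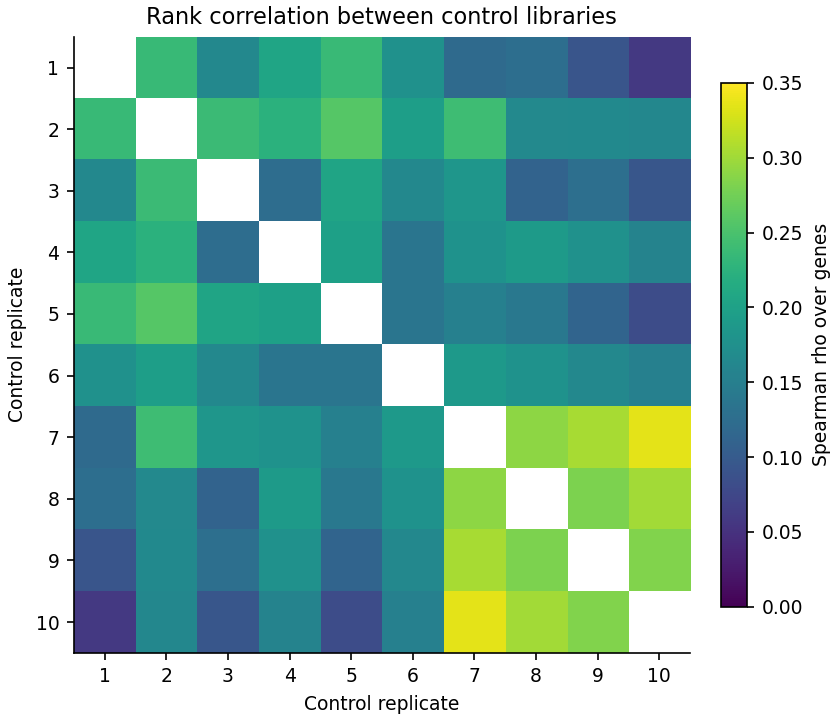
Spearman's rho across 1573 genes for each pair of the 10 control libraries, shown as colour from 0 to 0.35, with the diagonal left blank. The block of replicates 7 to 10 has the highest values on these genes, from 0.281 to 0.335, which was not so over all genes above 0.

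Few genes separated the number ranges completely. All of replicates 1 to 6 lay above all of 7 to 10 in 13 of the 1573 genes (0.826%), and below in 9 (0.572%). The 13 include the myelin genes Cnp and Klk6, the lysosomal genes Cd68 and Ctsb, Gpnmb, a glycoprotein of phagocytes, and the proteoglycan Ncan. Cnp had medians of 25.6 and 5.39 RPKM in the 2 ranges, and Ctsb medians of 31.5 and 6.31 RPKM. The 9 include the astrocyte enzyme Aldoc (medians of 0.174 and 2.30 RPKM), Dio2, which activates thyroid hormone, and Slc12a2, an ion cotransporter. In the Day 5 libraries, 12 of the 13 were also higher in replicates 1 to 6 and so were 74.3% of the 1573 genes. At Day 15, 11 of the 13 were, and 77.2% of the 1573 genes. Of the 9, 6 at Day 5 (66.7%) and 7 at Day 15 (77.8%) were higher in replicates 1 to 6, near the shares of the 1573 genes. These counts are not read as a result about the 13 or the 9.

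Genes steady in the controls were also found in most stroke libraries. All 15 stroke libraries detected 77 of the 137 (56.2%), against 198 of all genes (0.848%), and the 77 are 38.9% of those 198. A gene of high level passes both rules more easily, so the overlap is given as a description. In a limma fit over all 25 libraries and 4319 genes, 260 genes (6.02%) were higher and 1 (0.0232%) lower at Day 5 than in controls, at a Benjamini-Hochberg adjusted p under 0.05. Under upper-quartile scaling 19 were higher and 4 lower, and under quantile normalization 18 and 6, and a fit that takes the detected genes of each library as a covariate called 0, while 447 had an unadjusted p under 0.05. Of the 137 steady genes, all of them tested as deposited, 7 rose at Day 5 (5.11%) and 1 fell. The steady genes were chosen on the control values that are also the baseline of this difference, which tilts it downwards, so these counts are a description and are not set against the share of all genes. At Day 15, 4 genes (0.0926%) were higher and 0 lower in this fit, none of them steady genes, and 383 genes had an unadjusted p under 0.05.

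The gene that fell was Camk2n1, an inhibitor of the calcium kinase CaMKII. Camk2n1 had a median of 7.79 RPKM in controls (1.40 to 16.0) and 0.373 RPKM at Day 5 (0.0462 to 2.85). Its log2 difference was -1.92 ± 0.52 (SE, limma adjusted p = 0.0255), and it was -2.63 to -2.74 under 3 other scalings, past the threshold in each. It did not pass with the covariate. Camk2n1 was taken as a steady gene on the control values that are also its baseline, which tilts this difference downwards. Its p-value is therefore a description and no independent support. Apoe, the lipid carrier, had a median of 3.49 RPKM in controls (1.51 to 17.2) and 76.0 RPKM at Day 5 (15.0 to 168). Its log2 difference was 3.83 ± 0.73 (SE, limma adjusted p = 0.00204), and 2.92 to 3.13 under the 3 other scalings, past the threshold in each but not with the covariate. The lysosomal genes Lamp2, Ctss, Ctsd and Ctsb, the cytoskeletal linker Macf1 and Actb rose by 2.36 to 3.32 on the log2 scale as deposited, and none of the 6 passed under any of the 3 other scalings. The summed RPKM of the microglial list also differed between groups, at medians of 41.4 in controls and 265 at Day 5. This was not particular to that list. The medians were 12.2 and 303 for the macrophage and leukocyte list and 104 and 649 for the housekeeping list. For the myelin list they were 1057 and 738. The whole RPKM sum without Rn45s had medians of 18175 in controls and 36697 at Day 5. The part of these sums in the gene differences was not tested. No member of the myelin list passed in either comparison, and at Day 15 only 4 of all 4319 genes did. The median log2 difference of its 33 tested members was -0.13 at Day 5 and -0.85 at Day 15. Over all genes tested it was 0.61 and 0.17, so the list lay below genes at large, and this shift was not tested.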

How the data were processed

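RNA of laser-captured oligodendrocyte precursor cells from mouse brain was profiled in 25 libraries, of which the 10 controls are described. A Nugen Ovation kit amplified the cDNA, which was read as pairs of 100 bases, per the labels' protocols. The tools named are CASAVA 1.8.3, STAR 2.1.4a and HTSeq, and the build mm9, per the submitters' processing notes. The authors deposited RPKM per gene. How RPKM was computed, and from which gene lengths, is not stated in the sources used here. The values do not step in whole reads, since the commonest ratio between low values of 2 controls held for at most 0.103% of genes, so depth is unknown. All columns were used.

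From these RPKM values, genes were ranked by median and by the number of controls at 1 RPKM or more. Spread was the SD of log2(RPKM + 1), set against its running median among genes detected in at least 5 controls. The window was 201 genes, centred in the order of means and cut short at both ends of that order. Named are the 15 highest by median, the 10 of lowest SD among steady genes with a median of at least 10, the 15 of largest spread, 4 markers, the 3 highest members of each of 23 lists and the 5 largest single-library spikes, leaving out predicted models; other list members, genes of the number ranges and the called steady genes were named after their values were seen. A few genes this rule names are not reported here. The members and lists were chosen with earlier results of these data known.

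Marker levels were tested with exact sign-flip permutation tests and marker relations with permutation tests of 100000 resamples (Python 3.11.15, scipy 1.17.1, numpy 2.4.6, pandas 2.3.3), two-sided. A limma fit (version 3.58.1, R 4.3.3, intensity trend, robust) took in all 3 groups and the genes at 1 RPKM or more in 7 or more libraries. Scripts were tested on simulated data. Replicate numbers are shared between groups, but the deviations of same-numbered libraries correlated at only -0.0573 to 0.0842, so they were not taken as pairs. The labels do not tie libraries to animals, so p-values measure the spread between these libraries, which may be technical, and a shared animal would make them too small. Alternatives were pseudocounts of 0.1, detection at 0.5 or 2 RPKM, no filter, 3 scalings, a replicate block, a covariate for how many genes a library detected, other ranking measures and leaving out each control. Transcript lengths and shared words came from GENCODE M21, and promoters from RefSeq (GRCm38.p6), used for sequence only since the files use mm9. Strand is not stated, so overlapping and antisense genes are uncertain.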

Additional observations from a re-analysis of the deposited data

Results flagged for a closer look

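Of 105 results with a value in each control (named genes and properties of the libraries), 33 had a control whose gap to its nearest neighbour was a larger part of the whole range, for genes on the log2(RPKM + 1) scale, than the 95% limit for 10 values. Chance alone flags about 1 in 20 such groups when errors are normal, which RPKM values need not be. That rate is no yardstick here, since the named genes were chosen on these values: 18 were named for a large spread or a high value in a single library, of which 7 were past the limit, beside 26 of the other 87, most of them chosen for a high median. All 33 were at the high end, 8 in replicate 1, 6 in replicate 2, 4 in replicate 4, 8 in replicate 5, 2 in replicate 7, 3 in replicate 8 and 2 in replicate 10, and none in replicates 3, 6 or 9. The causes were not tested.

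In replicate 5, Rn45s stood at 93896 RPKM and took 73.4% of the summed RPKM, with Gfap at 335, Nav2 at 263 and Sh3kbp1 at 279. The immune and vessel genes Cd74 (85.4 RPKM), Ly6a (38.5) and Ctss (36.7) stood apart in the same library. In replicate 4, Nbas stood at 10186 RPKM, Qk at 313 and Mast3 at 252, and the 10 highest genes took 50.9% of the sum without Rn45s.

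In replicate 1, Tubb4a stood at 730 RPKM, Kcna6 at 295, Kcnj10 at 242, the early response gene Jun at 88.1 and the sterol regulator Srebf2 at 7.90. The ependymal genes Pifo (3.05 RPKM) and Foxj1 (1.07) and the small nucleolar RNA gene Snora16a (0.970) were highest there too. In replicate 2, Mapre2 stood at 329 RPKM, Sox10 at 94.7 and Sqle at 19.8. Lower values that stood apart in replicate 2 were those of Mir682 (4.21 RPKM), the globin Beta-s (1.31) and Tmem212 (0.406).

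Replicate 7 held Tns3 at 127 RPKM and Snord72 at 0.164. Replicate 10 held Celf4 at 76.8 RPKM and Snora15 at 0.00146. Replicate 8 held Mir17hg at 1.61 RPKM, Mir703 at 0.0766 and Hbb-b2 at 0.0248. Values below 1 RPKM count as not detected.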

How the results depend on the processing

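The 4 marker differences that passed (Mbp above each of the others, Gfap above Pdgfra) kept their direction and stayed past the threshold under all 13 alternatives each. Sox10 minus Pdgfra passed at 1.61 with a pseudocount of 0.1, at 1.20 after sum scaling without Rn45s, and without replicate 5 or 7 (1.30 and 1.26). Gfap minus Sox10 passed at 2.16, at 1.88 and without replicate 2 (2.12). Leaving out each control in turn gave 0.57 to 1.30 for the first and 1.01 to 2.12 for the second. The marker correlations changed sign readily: r of Mbp and Sox10 was 0.0527 with a pseudocount of 0.1 and -0.196 to 0.427 without each control, r of Sox10 and Pdgfra was -0.031 after sum scaling and -0.0924 after quantile normalization, and r of Gfap and Sox10 was -0.271 and -0.316, -0.0493 to 0.332 without each control, and 0.618 without the 2 libraries farthest from the median. For Mbp and Gfap r ran from -0.349 to 0.399 without each control. For Gfap and Pdgfra it ran from 0.0804 without replicate 5 to 0.751 without replicate 1 (permutation test, adjusted p = 0.0312).

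The number of genes detected in all controls was 299 at 0.5 RPKM, 54 at 2 RPKM, 300 after sum scaling and 306 after upper-quartile scaling. Of the 30 highest genes, 12 were shared with a ranking by mean. Of the 30 most variable, 14 were shared with the coefficient of variation, 17 with sum scaling, 17 with quantile normalization and 5 without a filter, and 15 to 25 when a control was left out. Day 5 calls numbered 261 as reported, and 553 with a pseudocount of 0.1, 24 without a filter, 23 with upper-quartile scaling, 36 with sum scaling and 24 with quantile normalization. With detected genes as a covariate limma called 0, while 447 genes had an unadjusted p under 0.05. Day 5 calls ranged from 136 to 370 when a control was left out, and fell by more than 1.5 times without replicate 1, 3, 4, 6, 9 or 10 (173, 149, 153, 155, 136 and 139). Day 15 calls numbered 4, and 38, 0, 9 and 1 with a pseudocount of 0.1, no filter, upper-quartile scaling and the covariate, and 0 to 2 when any 1 control was left out. Without a filter, 819 genes had an unadjusted p under 0.05 at Day 15. The fit with a replicate block called 499 genes at Day 5 and 4 at Day 15, although the numbers share little (2 of 15 stroke libraries correlated best with their own number). The causes of these moves were not tested. Depth is unknown, and a low value in a library cannot be told apart from the chance loss of a transcript.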
